A study of Mus musculus with 150 samples.

Results

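Oxidative phosphorylation is carried out by the respiratory complexes of the inner mitochondrial membrane. Complexes I and II pass electrons from NADH and succinate to ubiquinone, complex III passes them to cytochrome c, complex IV hands them to oxygen, and complex V uses the resulting proton gradient to make ATP. Complexes I, III, IV and V are built from subunits of both genomes. The core catalytic subunits of complex IV and several core subunits of complex I are made from mitochondrial DNA, while complex II and cytochrome c are encoded in the nucleus alone. p53, the transcription factor encoded by Trp53, has been linked to respiration in other systems through Sco2, which delivers copper to complex IV.

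The genes described here are all those whose symbols name a respiratory subunit or one of its close relatives (Ndufa, Ndufb, Ndufc, Ndufs, Ndufv, Uqcr, Cox4i to Cox8, Atp5, the 4 Sdh genes, Cyc1 and Cycs), together with the mitochondrially encoded mRNAs; symbols marked as pseudogenes were left out. There were 107 of them, 94 nuclear and 13 mitochondrial. The nuclear ones comprised 84 subunits, 7 complex I assembly factors (Ndufaf1 to Ndufaf7) and 3 other genes (Cox7a2l, Atp5s and Atp5sl). Ndufa4 and Ndufa4l2 were counted with complex IV. The bulk table held the 94 nuclear genes among 24341 genes and 0 mitochondrial ones, so the mitochondrial genome could be read in the single cells only, among 31175 genes.

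RNA was measured in mouse lung epithelial cells with and without p53, in 3 knockout libraries (replicates 7, 8 and 10) and 3 wild-type libraries (replicates 1, 5 and 6) of sorted cells, and in single cells of 1 chip per genotype. For bulk, cells of mice aged 8 to 12 weeks were sorted for a green fluorescent label and EpCAM and against CD31, CD34 and CD45. The label is switched on by Scgb1a1-CreERTM, a tamoxifen-induced Cre driven by the gene of the club cell secretory protein, in Rosa26-mT/mG reporter mice of either genotype. The genotype label reads p53-/- while the bulk protocol names floxed alleles, and for the time since tamoxifen the titles give day 30 but the protocol 70 days. Tamoxifen for RNA sequencing was given at 250 mg/kg, per the single-cell labels. The single-cell protocols name both Rosa26-mT/mG and Rosa26R-Confetti reporters, floxed and p53-/- alleles, BrdU injection and a culture with lung fibroblasts. Which of these the captured cells came from, and whether they had been in culture, the labels leave unstated. Nothing in the labels ties libraries to separate animals.

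Trp53 was lower in every bulk knockout library, at 8.63, 9.98 and 7.56 FPKM, than in any wild-type library, at 16.6, 22.2 and 21.7 FPKM (log2 fold change -1.12, limma adjusted p = 0.144). The limma adjusted p was 0.00993 without wild-type replicate 1 and 0.0064 with library weights. In these fits 407 and 913 genes in all had a limma adjusted p under 0.05. In the single cells Trp53 went against the labels. Trp53 had a TPM of at least 1 in 16 of 61 cells of the chip labelled knockout (26.2%, 15.8% to 39.1% as exact 95% interval), against 4 of 66 wild-type cells (6.06%, 1.68% to 14.8%), so these are called cells labelled knockout throughout. Intervals cover counting error only.

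Other properties moved with the groups. In bulk, the summed level of the alveolar type 2 markers (mean log2 level over 7 genes with values) was 7.75 to 8.05 in knockout and 8.29 to 9.64 in wild type, and that of the 10 ciliated markers was 5.44 to 6.27 in knockout and 3.98 to 5.58 in wild type. The 10 leukocyte markers were at 3.08 to 3.48 in knockout and 4.03 to 4.23 in wild type, while the 8 club cell markers with values overlapped, at 10.01 to 10.64 in knockout and 9.15 to 10.6 in wild type. The 7 endothelial markers were at 1.68 to 1.77 in knockout and 2.03 to 2.26 in wild type. Of these Pecam1, Cdh5, Cldn5 and Emcn were under 1 FPKM in all 6 libraries, while Esam was at 11.6 to 19.7 FPKM in knockout and 23.7 to 65.1 FPKM in wild type, and Kdr at 52.03 to 97.2 FPKM in knockout and 59.5 to 73.6 FPKM in wild type. The 8 markers of fibroblasts and smooth muscle were at 1.44 to 1.48 in knockout and 1.31 to 2.41 in wild type; Acta2, Pdgfra and Pdgfrb were under 1 FPKM throughout, and Sparc was at 16.6 to 19.9 FPKM in knockout and 28.9 to 54.1 FPKM in wild type. In the single cells, genes detected per cell had a median of 3580 in the chip labelled knockout and 3130.5 in the wild-type chip, and ERCC spike-in RNA took 6.28% and 13.2% of TPM. The part of these differences in the values below was not tested except where a value is given.

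In the bulk libraries no oxidative phosphorylation gene passed the test between genotypes. Of the 89 genes above the filter on low values (1 FPKM or more in 3 or more of the 6 libraries), 0 had a limma Benjamini-Hochberg adjusted p under 0.05, against 1 of 11957 genes in all (0.00836%). At an unadjusted p under 0.05, 2 were higher in knockout, Ndufaf6 and Ndufaf4, where 7.04% of all genes were, and 1 was lower, Cox6a2, where 6.06% of all genes were. Every knockout library lay above every wild-type library for 4 of them (9.04% of all genes) and below for 1 (10.2% of all genes). These shares are at or under those of all genes. The 5 genes left untested, Cox4i2, Cox7b2, Cox8b, Cox8c and Ndufa4l2, are tissue-restricted isoforms or paralogs; none was above 0.508 FPKM in any library, and Cox7b2 and Cox8c were listed at the table's lowest value, 0.01, in every library.

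Most fold changes were small and positive, 64 of 89, where 6156 of all 11957 tested genes were positive. The median was 0.07 on the log2(FPKM + 1) scale, against 0.01 over all tested genes. Medians by complex were 0.10 for the 7 complex I core subunits, 0.05 for the 29 complex I accessory subunits, 0.13 for the 4 complex II subunits, 0.18 for 9 complex III subunits, 0.06 for 14 complex IV subunits and 0.01 for 15 complex V subunits. The 7 complex I assembly factors had a median of 0.16. The median over all 79 tested subunits rested on single libraries. It was -0.10 without wild-type replicate 1 and 0.25 without wild-type replicate 6. Without knockout replicate 10 it was -0.003, and without knockout replicate 7 it was 0.16.

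**Figure D1:**
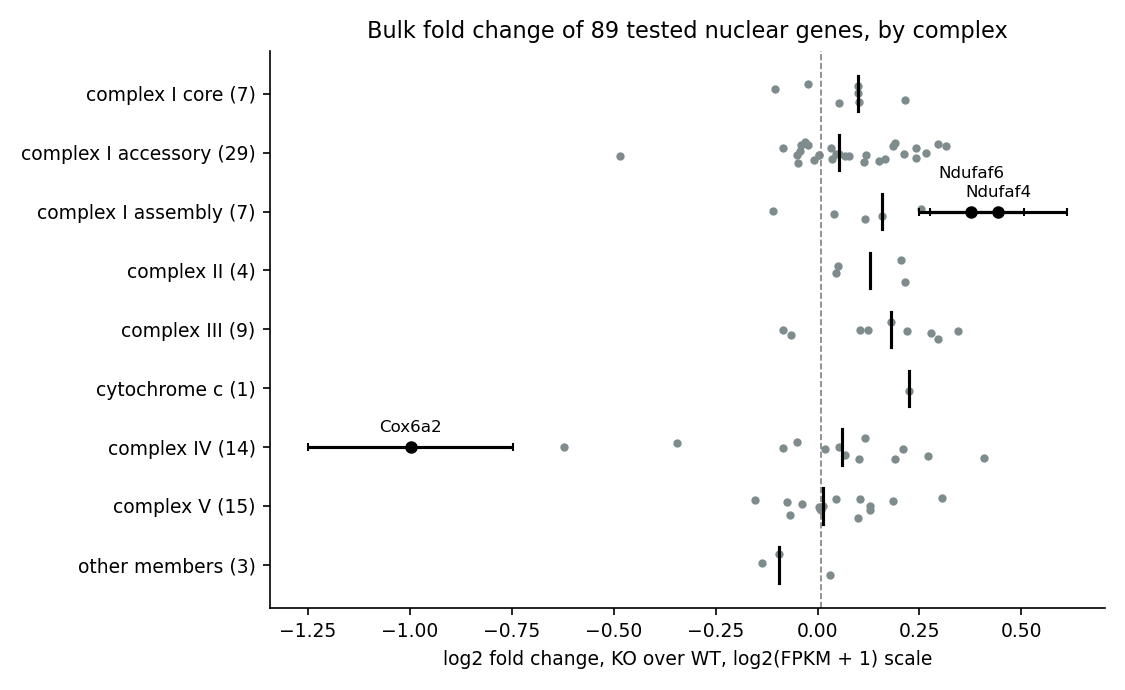
Log2 fold change, knockout over wild type, of the 89 tested nuclear genes by complex, with 1 point per gene, a vertical bar at each class median and a dashed line at the median of all tested genes (0.01). Genes with an unadjusted p under 0.05 are black with their standard error: Ndufaf6 (0.38) and Ndufaf4 (0.44) to the right, and Cox6a2 (-0.998) to the left.

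Complex I, the NADH dehydrogenase, was represented by core subunits, which carry the flavin and the iron-sulfur clusters, and by accessory subunits around them. Ndufv1, the flavin-binding core subunit at the NADH site, had 74.1, 72.9 and 74.5 FPKM in knockout libraries and 59.1, 61.8 and 69.9 FPKM in wild-type libraries. All 3 knockout libraries lay above all 3 wild-type libraries. The log2 fold change was 0.22 (SE 0.10, limma adjusted p = 0.417). Among accessory subunits, Ndufa3 was the most abundant of complex I, with 376, 466 and 532 FPKM in knockout libraries and 264, 345 and 658 FPKM in wild-type libraries. Wild-type replicates 1 and 6 held its lowest and highest value, on either side of the knockout libraries.

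Assembly factors of complex I, which help to build the enzyme and are not kept in it, were expressed at far lower levels per length than the subunits, with means over the 6 libraries of 2.89 FPKM (Ndufaf5) to 35.2 FPKM (Ndufaf7). Ndufaf4 (chr4:24898083-24905001, mm10) had 4.88, 3.74 and 4.28 FPKM in knockout libraries and 2.19, 3.09 and 3.50 FPKM in wild-type libraries. Ndufaf6 (chr4:11051046-11076205, mm10) had 7.29, 6.52 and 8.88 FPKM in knockout libraries and 5.35, 5.88 and 5.44 FPKM in wild-type libraries. Both genes lay higher in all 3 knockout libraries, by 0.44 for Ndufaf4 (SE 0.17, unadjusted p = 0.0341, limma adjusted p = 0.354) and 0.38 for Ndufaf6 (SE 0.13, unadjusted p = 0.0228, limma adjusted p = 0.334). Both were seldom detected in single cells: Ndufaf4 reached a TPM of 1 in 7 of 61 cells labelled knockout and 4 of 66 wild-type cells, and Ndufaf6 in 2 and 1.

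Complex II, succinate dehydrogenase, joins the citric acid cycle to the chain; Sdha and Sdhb form its catalytic part and Sdhc and Sdhd anchor it in the membrane. All 4 fold changes were positive and small. Sdhd had 117, 126 and 135 FPKM in knockout libraries and 101, 112 and 114 FPKM in wild-type libraries, with no overlap between the groups (log2 fold change 0.21, SE 0.11, limma adjusted p = 0.488). Sdha, by contrast, had 177, 163 and 171 FPKM in knockout libraries and 169, 170 and 156 FPKM in wild-type libraries, and the groups overlapped.

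Complex III, the cytochrome bc1 complex, had the highest class median of the complexes with several tested genes. Uqcrfs1, the Rieske iron-sulfur protein, had 109, 104 and 132 FPKM in knockout libraries and 76.1, 96.0 and 109 FPKM in wild-type libraries (log2 fold change 0.30, SE 0.17, limma adjusted p = 0.497). Wild-type replicate 6 lay within the knockout range. Uqcr10, one of its smallest subunits, had 445, 441 and 652 FPKM in knockout libraries and 228, 376 and 728 FPKM in wild-type libraries. Wild-type replicate 1 was its lowest library and wild-type replicate 6 its highest, so its log2 fold change of 0.35 came with a standard error of 0.42, and without wild-type replicate 1 it was -0.05. Cycs, the somatic cytochrome c gene, had 36.6, 36.6 and 42.7 FPKM in knockout libraries and 27.4, 32.9 and 39.5 FPKM in wild-type libraries, overlapping through knockout replicates 7 and 8 and wild-type replicate 6 (log2 fold change 0.22, SE 0.15, limma adjusted p = 0.563).

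Complex IV, cytochrome c oxidase, has isoforms that replace one another between tissues, and the bulk libraries used the widespread ones. Cox4i1 averaged 516 ± 97.0 FPKM in knockout and 436 ± 136 FPKM in wild type (SD, n = 3 each), whereas its paralog Cox4i2 averaged 0.106 ± 0.166 FPKM in knockout and 0.318 ± 0.202 FPKM in wild type. Cox6a1, the widespread form of subunit 6a, averaged 379 ± 59.9 FPKM in knockout and 404 ± 139 FPKM in wild type. Cox6a2, the form known from heart and skeletal muscle, was also present, and had the smallest p of all 89 genes. It had 12.2, 13.2 and 10.9 FPKM in knockout libraries and 36.9, 17.2 and 24.9 FPKM in wild-type libraries.

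All 3 knockout libraries were below all 3 wild-type libraries for Cox6a2, and wild-type replicate 1 stood highest. The log2 fold change was -0.998 (SE 0.25, unadjusted p = 0.00559, limma adjusted p = 0.308). Without wild-type replicate 1 it was -0.73 (limma adjusted p = 0.0671). The table places Cox6a2 in an interval shared with 2 other genes (chr7:128173946-128206366, mm10), both at or under 0.17 FPKM in every library. In single cells it reached a TPM of 1 in 6 of 16 wild-type cells that were Sftpc-dominant (37.5%, with 15.2% to 64.6% as the exact interval), against 5 of 49 Scgb1a1-dominant ones (10.2%, 3.40% to 22.2%). In the chip labelled knockout it did so in 2 of 12 Sftpc-dominant cells (16.7%, 2.09% to 48.4%) and 8 of 46 Scgb1a1-dominant cells (17.4%, 7.82% to 31.4%). In bulk the alveolar type 2 markers moved with it, all 7 with values being lower in knockout in fold change, and their part was not tested; in bulk samples fewer cells of a type and less RNA per cell cannot be told apart. Cox6b2, the form of subunit 6b known from testis, had 6.38, 12.3 and 7.03 FPKM in knockout libraries and 10.8, 9.16 and 22.9 FPKM in wild-type libraries, with overlap (log2 fold change -0.62, SE 0.36, limma adjusted p = 0.505).

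Complex V, ATP synthase, gave both the most abundant and the steadiest of these genes. Atp5j, the coupling factor 6 subunit, had the highest mean of all 94 nuclear genes, with 491, 526 and 715 FPKM in knockout libraries and 364, 526 and 738 FPKM in wild-type libraries. Atp5b, the catalytic beta subunit, had 494, 485 and 481 FPKM in knockout libraries and 476, 497 and 484 FPKM in wild-type libraries, where its highest library was 1.04 times its lowest over all 6. Its log2 fold change was 0.00 (SE 0.14). Atp5g1, Atp5g2 and Atp5g3 encode the same c subunit of the membrane ring with different import sequences, and all were used, at 126 ± 28.7, 159 ± 24.1 and 385 ± 69.6 FPKM in knockout and 106 ± 45.0, 182 ± 53.3 and 361 ± 76.6 FPKM in wild type (SD, n = 3 each).

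Subunit levels differed more between the wild-type libraries than between genotypes. Summed over the 84 subunits, FPKM came to 13875, 15430 and 18182 in knockout libraries and to 11331, 14712 and 19965 in wild-type libraries. The means were 15829 ± 2181 in knockout and 15336 ± 4351 in wild type (SD, n = 3 each), and the log2 ratio was 0.05. The wild-type libraries thus bracketed the knockout ones. As a percent of all FPKM in a library, the sum was 2.52%, 2.55% and 2.95% in knockout and 2.59%, 2.61% and 2.94% in wild type.

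Wild-type replicate 1 was the lowest of the 6 libraries for 70 of the 79 tested subunits (88.6%), and for 28.1% of all tested genes. Wild-type replicate 6 was the highest for 53 of them (67.1%), and for 17.9% of all tested genes. Between these 2 libraries the median subunit differed by 0.75 on the log2(FPKM + 1) scale, and the median gene by -0.00. The difference went with transcript length: it was 0.90 for the 52 subunits with a spliced length under 1000 bases and 0.32 for the 27 longer ones. All 995 tested genes under 1000 bases had a median of 0.50, and the 10483 longer ones of -0.03. Uqcr10 and Ndufa3 are among the short ones, and Atp5b, Sdha and Ndufv1 among the long ones. Wild-type replicate 1 also had the smallest total, 437710 FPKM, and the highest level of alveolar type 2 markers; wild-type replicate 6 had the largest total, 678870 FPKM, and its column name lacks a prefix that the other 5 share, whose meaning is not given. Their part in the subunit levels was not tested.

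**Figure D2:**
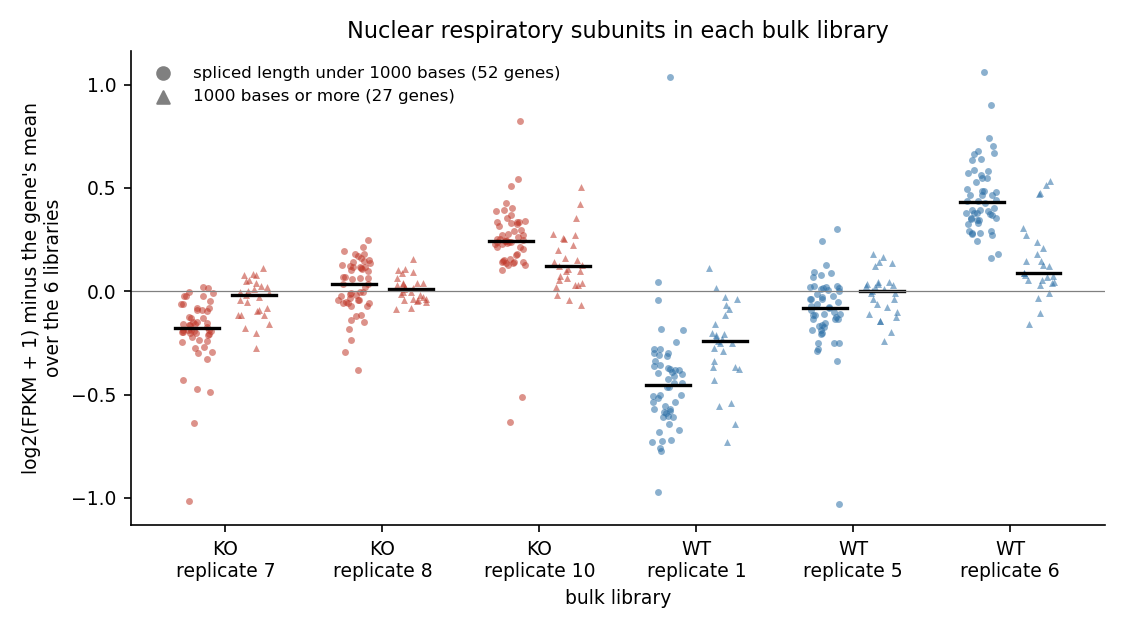
Each of the 79 tested subunits in each bulk library, as log2(FPKM + 1) minus the gene's mean over the 6 libraries, with circles for spliced lengths under 1000 bases, triangles for longer ones and black bars at the medians. Wild-type replicates 1 and 6 lie lowest and highest, and the short transcripts spread further than the long ones.

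Genes around the complexes were read from lists of assembly factors of the other complexes, regulators of mitochondrial biogenesis, the citric acid cycle, glycolysis and p53-linked metabolism. In each of these lists 0 genes had a limma adjusted p under 0.05. With library weights, which count wild-type replicate 1 least, limma adjusted p-values were 0.0176 for Pprc1, 0.0185 for Lpin1, 0.0301 for Sco2 and 0.0489 for Pank1. With these weights 913 of all 11957 genes had a limma adjusted p under 0.05. Of 30 further assembly factors, 16 had positive fold changes, and 1, Sco2, had an unadjusted p under 0.05 with a higher level in knockout, fewer than the 7.04% of all genes. Sco2 had 25.1, 29.5 and 22.1 FPKM in knockout libraries and 22.2, 17.6 and 16.9 FPKM in wild-type libraries (log2 fold change 0.42, SE 0.15, limma adjusted p = 0.336). The groups overlapped by a narrow margin between knockout replicate 10 and wild-type replicate 1. Sco2 is known to be activated by p53; its interval in the table holds 3 genes.

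Of 21 tested regulators of biogenesis, 4 had positive fold changes, where 6156 of all 11957 tested genes did, and the median was -0.05. Pprc1, a coactivator related to PGC-1 alpha, had 4.70, 6.12 and 6.60 FPKM in knockout libraries and 2.76, 2.98 and 2.96 FPKM in wild-type libraries. The groups were well apart (log2 fold change 0.79, SE 0.14, unadjusted p = 0.000835, limma adjusted p = 0.208), and without wild-type replicate 1 the gene passed the threshold (0.77, limma adjusted p = 0.0484). In all, 407 genes passed without that library. Peo1, the mitochondrial DNA helicase, had 3.49, 3.47 and 3.28 FPKM in knockout libraries and 4.89, 4.41 and 4.57 FPKM in wild-type libraries (log2 fold change -0.35, SE 0.11, limma adjusted p = 0.314). Nrf1, Gabpa, Yy1 and Tfam, transcription factors of nuclear or mitochondrial genes for respiration, had fold changes between -0.07 and 0.06.

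Of 16 genes of the citric acid cycle 7 had positive fold changes, with a median of -0.01 and 0 at an unadjusted p under 0.05. Of 20 glycolysis genes 10 were positive, with a median of 0.00. Among these was Aldoc, an aldolase known from brain, at 4.999, 7.498 and 4.54 FPKM in knockout libraries and 10.7, 7.17 and 8.04 FPKM in wild-type libraries (log2 fold change -0.54, SE 0.21, limma adjusted p = 0.355). In the p53-linked list of 8 tested genes, Lpin1, a phosphatidate phosphatase and coactivator of fatty acid oxidation, had 6.96, 7.23 and 5.30 FPKM in knockout libraries and 13.9, 11.3 and 10.03 FPKM in wild-type libraries (log2 fold change -0.76, SE 0.16, limma adjusted p = 0.276). Pank1, a pantothenate kinase of coenzyme A synthesis, had a log2 fold change of -0.46 (limma adjusted p = 0.312), and Tigar, a fructose bisphosphatase, of 0.34 (limma adjusted p = 0.354). Of the 8, 1 (Tigar) lay above in every knockout library and 2 (Lpin1 and Pank1) below, against 9.04% and 10.2% of all genes.

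Promoters of these genes are known for sites of NRF1, of GABP, which binds ETS sites, and of YY1, and 4 are shown for how such letters sit in members described here. They run from 250 bases before to 50 after the annotated start, read 5′ to 3′, with motif matches in capitals, and come from RefSeq on GRCm38.p6. The first is Ndufaf4 (chr4:24897833-24898132, plus strand), with 1 NRF1 match. Cox6a1 (chr5:115348909-115349208, minus strand) has 2 NRF1 matches and 1 ETS match on the other strand, Ndufa3 (chr7:3617123-3617422, plus strand) has 1 YY1 match, and Atp5b (chr10:128083057-128083356, plus strand) has none.
Ndufaf4: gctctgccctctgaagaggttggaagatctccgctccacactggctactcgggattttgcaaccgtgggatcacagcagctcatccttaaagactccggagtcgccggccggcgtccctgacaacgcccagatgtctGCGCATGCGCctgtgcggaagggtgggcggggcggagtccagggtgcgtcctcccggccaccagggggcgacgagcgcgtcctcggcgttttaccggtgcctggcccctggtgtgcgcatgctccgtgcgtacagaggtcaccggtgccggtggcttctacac
Cox6a1: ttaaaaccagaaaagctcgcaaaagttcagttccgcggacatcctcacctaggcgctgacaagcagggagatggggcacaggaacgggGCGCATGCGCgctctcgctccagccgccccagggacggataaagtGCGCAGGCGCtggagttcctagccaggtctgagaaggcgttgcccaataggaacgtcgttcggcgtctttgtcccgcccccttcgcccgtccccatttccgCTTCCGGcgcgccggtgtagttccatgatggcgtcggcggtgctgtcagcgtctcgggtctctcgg
Ndufa3: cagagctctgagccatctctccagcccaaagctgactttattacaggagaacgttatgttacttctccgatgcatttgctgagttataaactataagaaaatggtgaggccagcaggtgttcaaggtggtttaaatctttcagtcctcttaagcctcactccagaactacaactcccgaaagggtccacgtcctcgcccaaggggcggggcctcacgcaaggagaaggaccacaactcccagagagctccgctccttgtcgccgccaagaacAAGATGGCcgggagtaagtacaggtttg
Atp5b: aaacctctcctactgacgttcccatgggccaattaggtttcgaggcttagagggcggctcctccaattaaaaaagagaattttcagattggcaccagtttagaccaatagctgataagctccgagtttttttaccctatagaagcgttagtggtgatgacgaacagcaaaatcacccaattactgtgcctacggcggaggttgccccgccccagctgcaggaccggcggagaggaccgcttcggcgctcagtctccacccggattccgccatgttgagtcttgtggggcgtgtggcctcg

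Of the 94 nuclear genes, 77 matched a promoter window by symbol or a unique synonym. The motifs searched on both strands were GCGCANGCGC for NRF1, CCGGAAG for ETS factors and AAGATGGC for YY1. The NRF1 motif was in 18 of the 77 windows (23.4%), against 4.78% of 27025 windows of all genes. The ETS motif was in 16 (20.8%, against 9.12%) and the YY1 motif in 10 (12.99%, against 2.88%), and 39 windows (50.6%) held at least 1 of them, against 15.2% of all. Of the 77, 4 windows held both NRF1 and ETS letters and 1, that of Ndufs6, both NRF1 and YY1 letters. Matches of different motifs overlapped in 1 of the 27025 windows, for ETS and YY1. By complex, NRF1 letters were in 5 of 14 complex V windows and 7 of 32 complex I windows, but in 1 of 13 complex IV windows, that of Cox6a1. YY1 letters were in 7 complex I and 2 complex V windows and in none of complexes II, III and IV. A match is a run of letters and does not show binding.

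In the single cells, cells were divided by the ratio of Scgb1a1, the club cell secretory gene, to Sftpc, the surfactant protein gene of alveolar type 2 cells, one at least 2 times the other in TPM. Of the 61 kept cells labelled knockout 12 were Sftpc-dominant (19.7%, exact 95% interval 10.6% to 31.8%) and 46 Scgb1a1-dominant; of the 66 kept wild-type cells 16 were Sftpc-dominant (24.2%, 14.5% to 36.4%) and 49 Scgb1a1-dominant. Other markers followed the split in part. Lamp3, a lamellar body protein, reached a TPM of 1 in 11 of 12 and 15 of 16 Sftpc-dominant cells, against 18 of 46 and 11 of 49 Scgb1a1-dominant cells (chip labelled knockout first in each pair), and Cyp2f2, a club cell cytochrome P450, in all Scgb1a1-dominant cells, but also in 12 of 12 and 10 of 16 Sftpc-dominant ones. Of the 10 leukocyte markers 6 reached it in at least 1 cell labelled knockout and 3 in at least 1 wild-type cell, led by Cd74 (44 and 47 cells) and Lcp1 (38 and 27), with Ptprc in 0. Of the 7 endothelial ones Kdr (14 and 21 cells) and Esam (9 and 6) did, with Pecam1 and Cdh5 in 0. Of the 8 of fibroblasts and smooth muscle Sparc (20 and 24 cells) and Vim (0 and 2) did, with Col1a1 in 0. Each chip is 1 sample, so differences between chips and between states have no test, and they are described by size.

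The mitochondrial mRNAs were the most abundant transcripts of the machinery. The 13 of them made up a median of 5.89% of TPM per cell in the chip labelled knockout (range 2.26% to 18.6%) and 6.37% in the wild-type chip (1.25% to 26.5%). The 94 nuclear genes together made up 1.29% in the chip labelled knockout (0.808% to 2.41%) and 1.07% in the wild-type chip (0.0014% to 3.04%). Complex I subunits took 0.459% in cells labelled knockout and 0.397% in wild-type cells, complex IV 0.307% and 0.259%, complex V 0.266% and 0.228%, and complex III 0.190% and 0.136%.

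Among the mitochondrial mRNAs the order of levels was much the same in both chips. mt-Co3 and mt-Atp6, a catalytic-core subunit of complex IV and a proton-channel subunit of complex V, stood at the top, followed by mt-Co1, mt-Co2 and mt-Cytb. The complex I mRNAs mt-Nd6, mt-Nd5, mt-Nd3 and mt-Nd4l were lowest. The mean log2(TPM + 1) of mt-Co3 was 13.39 in cells labelled knockout and 13.55 in wild-type cells, and that of mt-Nd4l 9.49 and 9.45. Most neighbours in the order lay closer than their spread over cells, as the plot of mitochondrial mRNA levels shows. Over the 13 mRNAs the rank correlation of mean TPM between chips was 0.956. For the 94 nuclear genes, mean TPM in each chip was compared with mean FPKM over all bulk libraries of both genotypes. Across these genes the rank correlation was 0.87 for the chip labelled knockout and 0.86 for the wild-type chip.

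**Figure D3:**
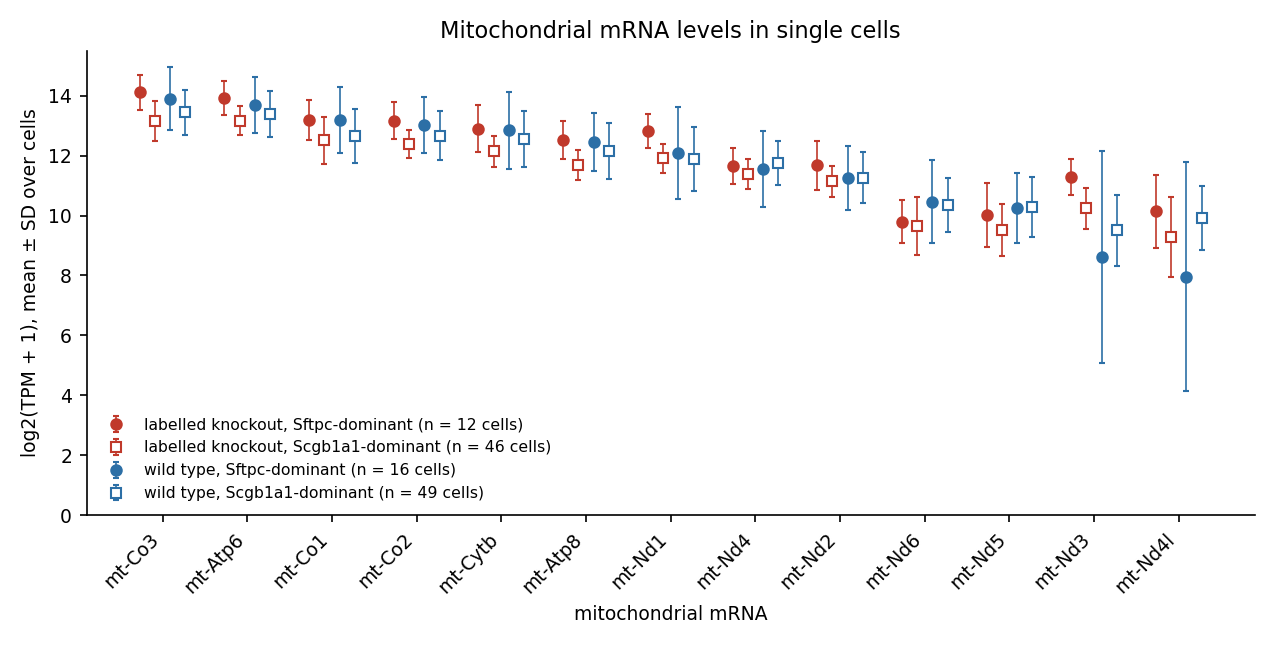
Mean and SD over cells of log2(TPM + 1) for the 13 mitochondrial mRNAs, ordered by level, in Sftpc-dominant (filled circles) and Scgb1a1-dominant cells (open squares) of the chip labelled knockout (12 and 46 cells) and of the wild-type chip (16 and 49 cells). mt-Co3 and mt-Atp6 are highest and mt-Nd3 and mt-Nd4l lowest, and the error bars of the groups overlap for each mRNA.

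Nuclear and mitochondrial transcripts did not differ alike between the chips. Of 79 nuclear genes that could be counted (a TPM of at least 1 in at least 30% of cells of the higher chip), 41 were higher by at least 1 in mean log2(TPM + 1) in cells labelled knockout and 0 were lower, while of the 13 mitochondrial mRNAs 1 was higher, mt-Nd3, and 0 lower. Over all 4401 genes counted so, 16.8% were higher and 0.25% lower. The median difference of the 84 subunits was 0.97, against 0.44 over all counted genes and -0.15 over the mitochondrial mRNAs. The sign of this mitochondrial median turned with the filter on cells: it was 0.03 among cells with at least 2000 genes and 0.24 with no filter.

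By complex, 19 of 35 counted complex I subunits were higher in cells labelled knockout, 1 of 4 of complex II, 4 of 9 of complex III, 7 of 11 of complex IV, 9 of 15 of complex V and 1 of 3 assembly factors. Atp5c1, the central stalk gamma subunit, had a mean log2 level of 6.01 in cells labelled knockout and 3.71 in wild-type cells, a difference of 2.30. Ndufb10, an accessory subunit of the membrane arm, had 5.15 in cells labelled knockout and 3.19 in wild-type cells, and Ndufs5, an intermembrane-space subunit, 5.34 and 3.42. Sdhd, the one member of complex II past the size threshold, had 3.08 in cells labelled knockout and 1.43 in wild-type cells. It was detected in 30 of 61 cells labelled knockout (49.2%, exact 95% interval 36.1% to 62.3%) and 14 of 66 wild-type cells (21.2%, 12.1% to 33.02%). Uqcr11 (8.39 in cells labelled knockout and 6.79 in wild-type cells), Cox5a (4.91 and 3.20), Cox6c (7.97 and 6.31) and Atp5h (7.42 and 5.53) also passed the size threshold.

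The mitochondrial mRNAs went both ways and mostly by less. mt-Nd3 had a median TPM of 1489 in cells labelled knockout (lowest 261, highest 4262) and 720 in wild-type cells (0 to 4223), with a difference of 1.19 in mean log2 level. mt-Nd5 and mt-Nd6, by contrast, were lower in cells labelled knockout, by -0.59 and -0.62. The 2 sets of cells overlapped for each of these mRNAs. In all, 4 of 13 differences were positive, as were 2 of 13 within Scgb1a1-dominant cells but 11 of 13 within Sftpc-dominant cells. The median was 0.15 in the latter, and 2 passed the size threshold, mt-Nd3 (2.66) and mt-Nd4l (2.17), as did 30.9% of all genes counted there. Without ERCC rows in TPM the counts were 1 of 13 over all cells, 1 of 13 within Scgb1a1-dominant and 4 of 13 within Sftpc-dominant cells. The medians over all cells and within Sftpc-dominant cells were then -0.39 and -0.18, and over all cells 0 passed the size threshold.

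The nuclear excess in cells labelled knockout was smaller among cells with at least 2000 genes and as a ratio of mean TPM. Over cells, summed nuclear TPM and genes per cell had rank correlations of 0.10 in the chip labelled knockout and 0.47 in the wild-type chip. With TPM taken without ERCC, Scgb1a1, Sftpc and mitochondrial rows these were -0.48 and 0.02. The part of detected genes per cell was not tested. A cell labelled knockout had a median of 67 of the 94 nuclear genes detected (39 to 76) and a wild-type cell 57 (2 to 77, the lowest being 1 cell with 0.0014% of its TPM in them). Of the kept cells, 1 labelled knockout and 13 wild type had fewer than 2000 genes, and 0 and 5 had over 50% of TPM in ERCC RNA. Among cells with at least 2000 genes the median subunit difference was 0.40 (0.18 over all counted genes). There 9 of 80 nuclear genes were higher past the size threshold, as were 348 of all 4724 counted genes. As a ratio of mean TPM the median was 0.27 (0.21 over all counted genes). By that ratio 3 of 79 nuclear genes were higher past the threshold, as were 553 of all 4401. Within all kept Scgb1a1-dominant cells, in mean log2 level, the median subunit difference was 0.83 and 32 of 79 nuclear genes were higher. Of all 4693 genes counted there 17.2% were, and 0 mitochondrial mRNAs passed the threshold. Among those Scgb1a1-dominant cells with at least 2000 genes the median subunit difference was 0.34 (0.21 over all counted genes). There 16 of 80 nuclear genes were higher, as were 477 of all 4793. As a ratio of mean TPM over all kept Scgb1a1-dominant cells the median subunit difference was 0.21 (0.20 over all counted genes). There 1 of 79 nuclear genes was higher, as were 694 of all 4693. The bulk fold changes of the same genes, given above, were near 0.

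Between cell states the result over all nuclear genes depended on the measure. In mean log2 level the median nuclear subunit was lower in Sftpc-dominant cells of both chips. The summed share of TPM of the nuclear genes, given below, was not lower in the chip labelled knockout. The median mitochondrial mRNA was higher in Sftpc-dominant cells of both chips, with 5 of 13 lower in the wild-type chip. Without ERCC rows in TPM, 13 of 13 were higher in the chip labelled knockout and 11 of 13 in the wild-type chip. Mitochondrial mRNAs took a median of 8.84% of TPM in Sftpc-dominant cells labelled knockout (5.12% to 18.6%), against 5.32% in Scgb1a1-dominant ones (2.26% to 10.2%). In the wild-type chip the medians were 6.78% in Sftpc-dominant cells (1.90% to 22.7%) and 5.89% in Scgb1a1-dominant cells (1.25% to 26.5%). The cells overlapped in both chips. Nuclear genes took 1.30% in Sftpc-dominant and 1.26% in Scgb1a1-dominant cells labelled knockout, and 0.889% and 1.08% in wild-type cells. By complex, median shares of complex III were 0.1388% in Sftpc-dominant and 0.1985% in Scgb1a1-dominant cells labelled knockout, and 0.0825% and 0.155% in wild-type cells. Those of complex II were also lower in Sftpc-dominant cells of both chips. Those of complexes I (0.4998% and 0.4555%), IV (0.3096% and 0.3012%) and V (0.2857% and 0.2497%) were higher in Sftpc-dominant cells labelled knockout. In the wild-type chip complexes I and V were higher and IV was lower.

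**Figure D4:**
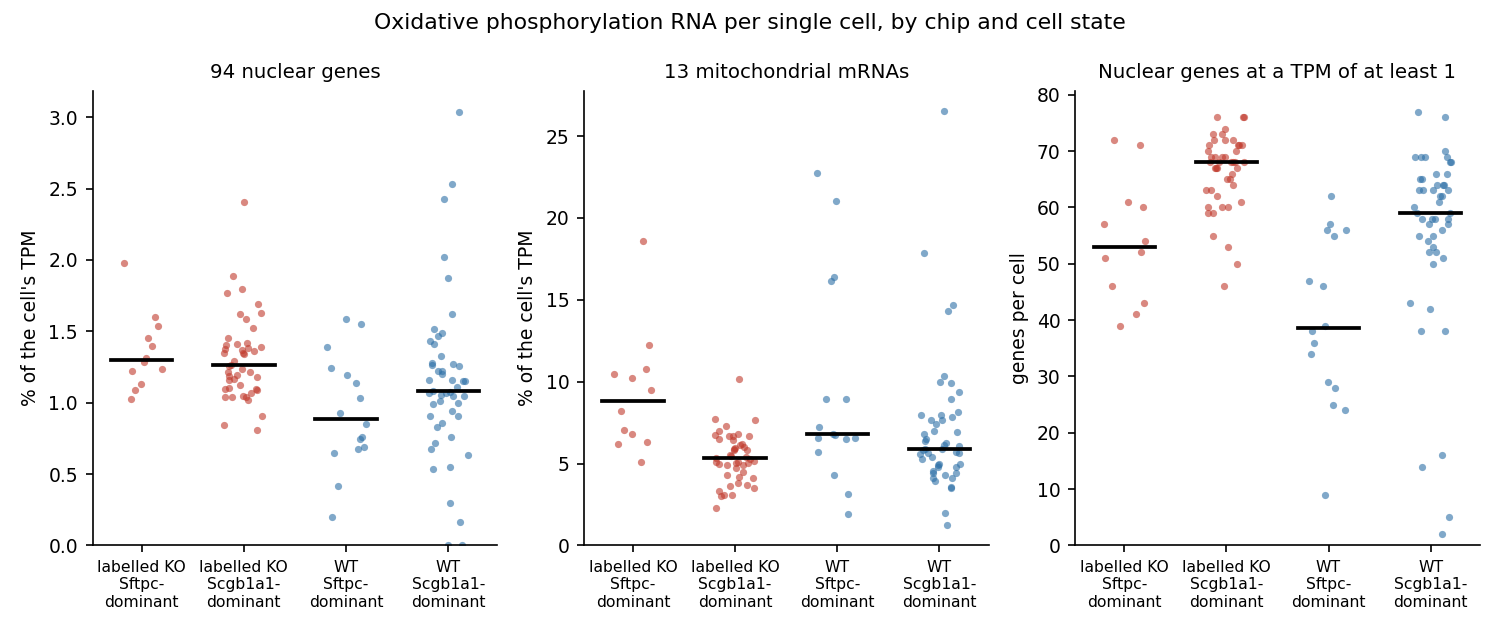
Each point is 1 cell, with a bar at the median, by chip and state: percent of TPM in the 94 nuclear genes (left) and the 13 mitochondrial mRNAs (middle), and number of nuclear genes at a TPM of at least 1 (right). Sftpc-dominant cells lie lower in the right panel, with medians of 53 against 68 in the chip labelled knockout and 38.5 against 59 in the wild-type chip.

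On the log2 scale, 24 of 75 nuclear genes countable in both chips were lower in Sftpc-dominant cells by at least 1 in each chip, against 10.6% of all 3875 genes, and 0 were higher, against 3.38%. These were 11 of 35 complex I subunits, 2 of 3 of complex II (Sdha and Sdhb), 5 of 7 of complex III, 3 of 11 of complex IV, 2 of 15 of complex V and the assembly factor Ndufaf7. The median subunit difference was -0.79 in the chip labelled knockout and -1.33 in the wild-type chip, where the medians over all counted genes were -0.04 and -0.12.

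Ndufa1, an accessory subunit encoded on the X chromosome, had a mean log2 level of 4.55 in Sftpc-dominant and 8.44 in Scgb1a1-dominant cells labelled knockout, and of 4.33 and 6.22 in wild-type cells. Uqcr10 of complex III had 5.99 in Sftpc-dominant and 8.41 in Scgb1a1-dominant cells labelled knockout, and 4.39 and 7.41 in wild-type cells. Ndufs6, a zinc-binding subunit of complex I, had 3.14 in Sftpc-dominant and 5.82 in Scgb1a1-dominant cells labelled knockout, and 2.57 and 5.53 in wild-type cells. For each of these 3 genes the sign was the same in both chips, also among cells with at least 2000 genes and as a ratio of mean TPM.

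Cox6c and Atp5h did not keep 1 direction. Cox6c, a small subunit of complex IV, had 8.32 in Sftpc-dominant and 7.83 in Scgb1a1-dominant cells labelled knockout, but 4.40 in Sftpc-dominant and 6.90 in Scgb1a1-dominant wild-type cells. Atp5h, the peripheral stalk subunit d, had 8.00 in Sftpc-dominant and 7.35 in Scgb1a1-dominant cells labelled knockout, and 4.46 and 5.81 in wild-type cells. Cycs was lower in Sftpc-dominant cells of both chips but past the size threshold in 1 of them, with 2.69 in Sftpc-dominant and 3.26 in Scgb1a1-dominant cells labelled knockout, and 1.26 and 2.85 in wild-type cells.

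All 13 mitochondrial mRNAs were higher in Sftpc-dominant cells of the chip labelled knockout, with a median difference of 0.76, and 8 of 13 were higher in the wild-type chip, with a median of 0.19. Without ERCC rows in TPM these medians were 0.88 and 0.43. mt-Co3 had a median of 17286 TPM in Sftpc-dominant and 9553 TPM in Scgb1a1-dominant cells labelled knockout, and of 15217 and 10698 TPM in wild-type cells. mt-Co1 of complex IV differed by 0.68 in the chip labelled knockout and 0.53 in the wild-type chip, in mean log2 level. mt-Nd3 differed by 1.03 in the chip labelled knockout and by -0.89 in the wild-type chip. mt-Nd4l, a small complex I subunit, had a mean log2 level of 10.14 in Sftpc-dominant and 9.28 in Scgb1a1-dominant cells labelled knockout, but of 7.96 and 9.91 in wild-type cells; its difference of -1.95 was the one past the size threshold in the wild-type chip, where 21.7% of all counted genes were lower by at least 1.

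**Figure D5:**
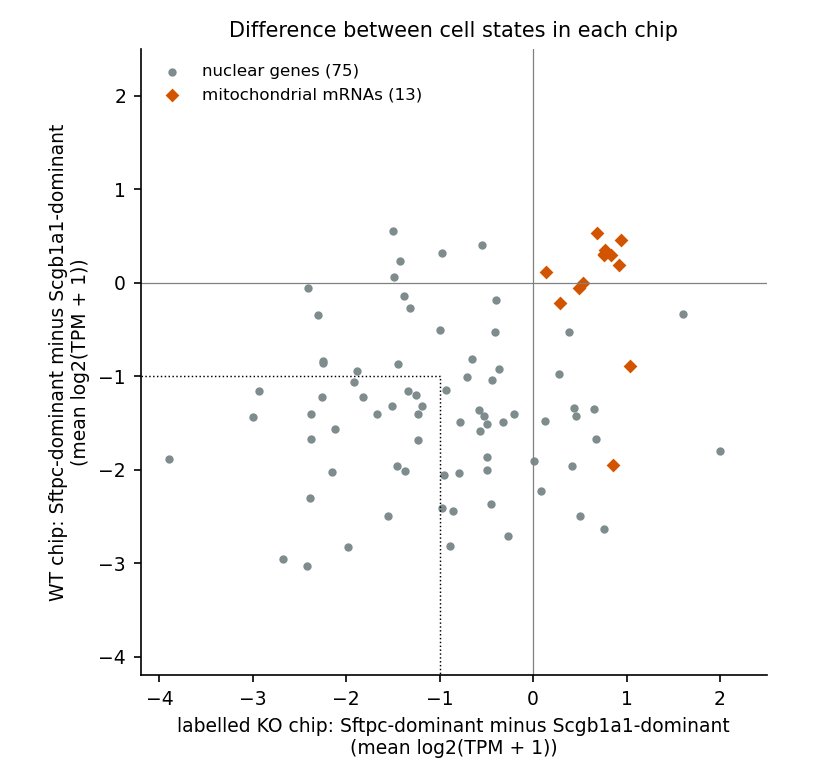
Difference in mean log2(TPM + 1), Sftpc-dominant minus Scgb1a1-dominant cells, in the chip labelled knockout (horizontal axis) and the wild-type chip (vertical axis), for 75 nuclear genes (grey) and 13 mitochondrial mRNAs (orange). The dotted corner holds the 24 nuclear genes lower by at least 1 in both chips, while the mitochondrial mRNAs lie right of 0.

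Detected genes and the ERCC share moved with state as well. Sftpc-dominant cells had medians of 3256.5 detected genes in the chip labelled knockout and 2581 in the wild-type chip, against 3824 and 3154 in Scgb1a1-dominant cells, and ERCC RNA took 14.7% and 24.2% of TPM in them, against 5.68% and 11.04%. As a ratio of mean TPM, the median subunit difference between states was 0.00 in the chip labelled knockout and -0.29 in the wild-type chip. Over all counted genes it was 0.16 and 0.05. By that ratio 6 of 75 nuclear genes were lower past the threshold in both chips, as were 324 of all 3875 genes. Higher in both were 0 nuclear genes and 219 of all. Among cells with at least 2000 genes the median subunit difference in mean log2 level was -0.81 and -1.15.

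Across the cells of a chip, pairs of mitochondrial mRNAs had higher rank correlations than pairs of nuclear subunits. The median rank correlation over pairs of mitochondrial mRNAs was 0.50 over 61 cells labelled knockout and 0.60 over 66 wild-type cells. Over pairs of nuclear subunits it was 0.06 in cells labelled knockout and 0.20 in wild-type cells, and between nuclear subunits and mitochondrial mRNAs -0.07 and -0.15. Nuclear subunits entered if detected in at least 30% of cells (75 in the chip labelled knockout, 70 in the wild-type chip). Missing detection can lower rank correlations, so the low values do not show that nuclear subunits vary apart. The cells of a chip share a run and differ in genes detected, and TPM sums to a constant. Summed mitochondrial mRNA had rank correlations of 0.58 and 0.46 with the ERCC share. Within Scgb1a1-dominant cells alone these were 0.26 and 0.44, and the median over pairs of mitochondrial mRNAs was 0.36 in cells labelled knockout and 0.56 in wild-type cells.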

How the data were processed

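The submitters' processing notes list TopHat, Bowtie2 and Cufflinks (versions not given in the sources used here) and mm10 for the deposited bulk FPKM values. For the deposited single-cell TPM values they list GRCm38, Bowtie 1.1.1 and RSEM 1.2.20. Neither unit keeps read counts, so depth is unknown and no count test was used. The bulk table has 12 genes with marked entries in place of values, Scgb1a1 and Sftpc among them and 0 of the genes described, and these were left out. No column was matched to 2 knockout cell samples, which are not analysed here. Control, debris and valve wells were left out, as were cells in which under 1000 genes reached 1 TPM (3 of 64 labelled knockout, 6 of 72 wild type). Wells with doublets were removed by eye before deposit, per the labels' protocols, and no doublet caller was run.

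Bulk was tested with limma 3.58.1 in R 4.3.3 on log2(FPKM + 1), robust eBayes with a trend, as a two-sided test, and Benjamini-Hochberg adjustment over all 11957 tested genes and a threshold of 0.05; the scale understates changes of low genes, and the fit was tested on simulated data. No label ties a library to an animal of its own; the p-values therefore measure only library-to-library spread, which may be technical. Cells were described in Python 3.11.15 with pandas 2.3.3, by differences of mean log2(TPM + 1); the pseudocount was 1. Spliced lengths came from the mouse annotation supplied. Counting by strand is not stated, and 14 of the genes share a table interval with another gene.

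Members and lists were chosen with earlier results of these data known. Named genes are Trp53, Cycs, the mitochondrial mRNAs, complex II, isoform groups, for each other class the 2 genes highest in bulk, of smallest p, of largest chip difference and of largest state difference, and up to 4 per further list by smallest p. Other examples were chosen after their values were seen. Alternatives were other pseudocounts, filters, scalings, library weights and left-out libraries. In cells they also were other limits on genes per cell and on state, and a ratio of mean TPM.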

Additional observations from a re-analysis of the deposited data

How the results depend on the processing

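In bulk, 0 of the oxidative phosphorylation genes passed the adjusted limma threshold under any alternative run. Over all genes, 2 passed with a pseudocount of 0.1, 0 with 10, 3 with no filter on low values and 913 with library weights, and 0 to 407 with 1 library left out, the highest without wild-type replicate 1. At an unadjusted p under 0.05, 1 member was higher with no filter and 1 with quantile normalization. With 1 library left out 0 to 13 were higher, the highest count without wild-type replicate 6. With library weights 5 members were lower, and 1 to 2 with 1 library left out. The share of all genes at an unadjusted p was not taken under these alternatives, so these counts have no background. The fold change of Atp5b was -0.02 with weights and -0.0105 to 0.02 with 1 library left out, that of Atp5j -0.13 to 0.38, that of Uqcr10 -0.0536 to 0.78 and that of Ndufa3 -0.0713 to 0.58; wild-type replicate 1 gave the lowest of each.

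In cells, with a pseudocount of 0.1 the median nuclear subunit difference was 1.29 between chips and -1.13 and -1.93 between states (chip labelled knockout, then wild-type chip). Between states 39 genes were lower past the size threshold in both chips, as were 749 of all 3875 counted genes. With 10 the medians were 0.52, -0.32 and -0.64, and 6 genes were lower past it between states in both chips, against 131 of all 3875. Between chips 8 genes were then higher past it, against 122 of all 4401. Among cells with at least 2000 genes the chip median was 0.40, with 10 genes higher past the threshold, against 348 of all 4724. With no filter on cells the mitochondrial median was 0.24 between chips and 0.69 between states in the wild-type chip, and the nuclear one -0.49 between states in the chip labelled knockout. By ratio of mean TPM the nuclear medians were 0.27, 0.00 and -0.29. Past the threshold, 3 genes were higher between chips, against 553 of all 4401. Between states 6 were lower in both chips, against 324 of all 3875. By that ratio 40 of 81 counted nuclear genes were higher in Sftpc-dominant cells of the chip labelled knockout, against 17 in mean log2 level. In the wild-type chip 23 of 76 were, against 6. Between chips 61 of 79 were higher in cells labelled knockout, against 78. Of the named genes past the size threshold, state differences turned for Ndufb10 (0.13), Uqcrb (0.13) and Atp5j2 (0.0262) in the chip labelled knockout. In the wild-type chip they turned for Cox5a (0.0321) and Atp5j2 (0.0553). The chip difference of Cox6b1 turned to -0.091. Uqcrq turned to 0.12 between states in wild-type cells with at least 2000 genes. The cause was not tested. Depth is unknown, so low genes such as Ndufaf4 cannot be given counting limits. No paired analysis was possible because the bulk groups share no replicate numbers and cell numbers only name cells.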
